A study of Mus musculus with 2 samples.

Results

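The 8 genes described here encode the troponin complex of striated muscle in its cardiac, slow skeletal and fast skeletal forms: troponin C (Tnnc1, Tnnc2), troponin I (Tnni1, Tnni2, Tnni3) and troponin T (Tnnt1, Tnnt2, Tnnt3). They were taken by gene symbol, and all 8 were present among 55348 gene entries. RNA was measured in E13.5 mouse hearts of strain 129sv, in 1 wild-type library and 1 library homozygous for the H222P mutation of Lmna (Lmna H222P/H222P), a missense change in lamin A and lamin C of the nuclear lamina that is used to model laminopathy. The labels do not give the number or sex of the hearts in each library, and name no treatment apart from the RNA preparation. With 1 library per genotype no test of the genotypes was possible. Every difference below lies between these 2 libraries, and the 95% intervals cover counting error only.

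Troponin sits on the thin filament of actin and tropomyosin and makes contraction depend on calcium. Troponin C binds calcium, troponin I holds the filament in its inhibited state, and troponin T anchors the complex to tropomyosin. In the heart, Tnni1, the slow skeletal form of troponin I, is the fetal form and is replaced by Tnni3, the cardiac form, around birth and after it. Tnnt2 is the cardiac form of troponin T, and Tnnt1, the slow skeletal form, is also transcribed in the embryonic heart. Tnnc1 serves both heart and slow muscle, whereas Tnni2, Tnnt3 and Tnnc2 are the forms of fast skeletal fibres.

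In the H222P library, the 5 cardiac and slow genes (Tnnc1, Tnni1, Tnni3, Tnnt1, Tnnt2) were lower by 2.37-fold to 3.85-fold. The summed reads of troponin I, troponin T and troponin C were lower by nearly the same factor, 2.54-fold, 2.47-fold and 2.53-fold. Within the families the make-up differed between the libraries: cardiac Tnni3 was lower relative to fetal Tnni1, and slow Tnnt1 was lower relative to cardiac Tnnt2. The fast genes differed from these. Tnni2 was 1.17-fold lower and Tnnt3 was 3.27-fold higher, at a far lower abundance.

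The libraries held 32669225 (wild type) and 25120790 (H222P) reads on genes. All 18 cardiomyocyte markers examined had a mean of at least 1 CPM (counts per 1e6 reads on genes, after scaling), and their levels summed to 30006 CPM (wild type) and 16132 CPM (H222P). Markers of liver summed to 32.8 and 5915 CPM, and markers of erythroid cells to 216 and 1559 CPM. The H222P library thus also held more RNA of liver and erythroid markers. All 12 liver genes and 8 of 9 erythroid genes exceeded 1.5-fold there, against 10.9% of the 14716 genes averaging 1 CPM or more. Their part in the troponin values was not tested. Leaving those genes and the globins out of the library totals and scaling gave a log2 ratio of −1.24 for Tnni1, as with them. Only these listed genes were removed, and any other RNA of liver and erythroid cells stayed in the totals. The setting therefore does not measure the part of those tissues. In such whole-heart RNA, fewer cardiomyocytes and less RNA per cardiomyocyte cannot be told apart.

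In the mouse genome (build mm10, GENCODE release M21 annotation), 3 pairs of neighbouring genes hold the I and T forms. Tnni1 (chromosome 1, 135779434 to 135810989, plus strand) lies 25364 bases before Tnnt2 (135836354 to 135852260), with Lad1 between them. Tnnt1 (chromosome 7, 4504570 to 4516382, minus strand) lies 1922 bases from Tnni3 (4518305 to 4524229). Tnni2 (chromosome 7, 142441808 to 142444410, plus strand) lies 54425 bases before Tnnt3 (142498836 to 142516009), with Lsp1 between them. Tnnc1 (chromosome 14, 31208312 to 31211729, plus strand) and Tnnc2 (chromosome 2, 164777161 to 164779967, minus strand) stand apart from the others. Counts cover all annotated exons of a gene, so splice forms, of which GENCODE lists 15 for Tnnt2 and 27 for Tnnt3, could not be told apart.

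The 150 bases before the first RefSeq start of the 5 cardiac and slow genes are shown because these genes lay lower together. Sequences are from RefSeq (GRCm38.p6), each on its gene's own strand. The Tnni1, Tnni3 and Tnnt1 stretches lie inside the GENCODE spans given above, and the GENCODE starts farther upstream were not searched. Tnni1 and Tnnt2 have 2 RefSeq starts each, of which the first was used. Capitals mark every match, on either strand, to the M-CAT element CATTCC of muscle genes, the TATA box TATAAA, the GATA element AGATAA, the E-box CANNTG of basic helix-loop-helix factors, the MEF2 site or the CArG box of serum response factor.
Tnnc1, chr14:31208162-31208311, plus strand: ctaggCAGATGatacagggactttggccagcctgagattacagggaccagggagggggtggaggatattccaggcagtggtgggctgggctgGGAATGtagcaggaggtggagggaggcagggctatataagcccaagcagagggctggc
Tnni1, chr1:135799271-135799420, plus strand: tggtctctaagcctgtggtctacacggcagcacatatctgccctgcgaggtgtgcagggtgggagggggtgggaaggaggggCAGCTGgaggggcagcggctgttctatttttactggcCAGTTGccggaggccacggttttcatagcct
Tnni3, chr7:4522529-4522678, minus strand: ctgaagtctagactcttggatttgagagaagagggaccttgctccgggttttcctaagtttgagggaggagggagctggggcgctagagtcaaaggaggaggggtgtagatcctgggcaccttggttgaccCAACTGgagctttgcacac
Tnnt1, chr7:4515976-4516125, minus strand: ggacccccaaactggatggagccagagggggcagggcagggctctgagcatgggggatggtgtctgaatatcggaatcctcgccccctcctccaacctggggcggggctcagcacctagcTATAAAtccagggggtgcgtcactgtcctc
Tnnt2, chr1:135836184-135836333, plus strand: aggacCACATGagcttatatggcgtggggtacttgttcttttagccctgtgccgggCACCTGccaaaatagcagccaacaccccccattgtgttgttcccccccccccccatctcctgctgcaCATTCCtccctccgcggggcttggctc
The search covered 250 bases before the start in 6 troponin genes with an entry, Tnnc2 besides the 5 shown. Tnni2 and Tnnt3 had none. An M-CAT element was found in Tnnt2 (27 bases before the start) and in Tnnc1 (58 bases before it), and 12.6% of all 32851 promoters of the same length hold one. A TATAAA was found in Tnnt1 alone, where it begins 30 bases before the start, against 12.4% of all promoters. The GATA letters were found in Tnnt2 alone, farther from the start than the stretch shown, against 9.99%. All 6 had an E-box, a match that 66.2% of promoters hold. No exact match to the MEF2 or CArG consensus was found in these windows, against 2.92% and 1.47% of promoters. Near matches were not counted, so weaker sites may be present. In the 5 genes that lay lower together, none of the 6 motifs other than the E-box was present in every stretch searched.

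Troponin C, the calcium sensor, was read almost only from Tnnc1. Reads of Tnnc1 numbered 44974 (wild type) and 15174 (H222P), which is 1451 and 573 CPM. Its level per kilobase of exon, in RPKM (CPM divided by the kilobases of all annotated exons), was 1394 and 550, the highest of the troponin genes in both libraries. By RPKM it ranked 9 among wild-type and 28 among H222P protein-coding genes. It was 2.53-fold lower in the H222P library (95% interval 2.49 to 2.58). Tnnc2, the fast form, had 1 and 9 reads, a log2 ratio of 2.89 with an interval of 0.54 to 8.85, so its size is poorly fixed. Tnnc2 lies opposite Ube2c, a cell-cycle gene with 5327 and 4396 reads, and 47.9% of the 50-base words of its transcripts also occur in Ube2c transcripts on one strand or the other. In the count that ignores strand it was listed with 0 reads in both libraries. Tnnc2 was the 1 gene of the 8 with a mean under 1 CPM and is left out of the counts of higher and lower genes.

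**Figure D1:**
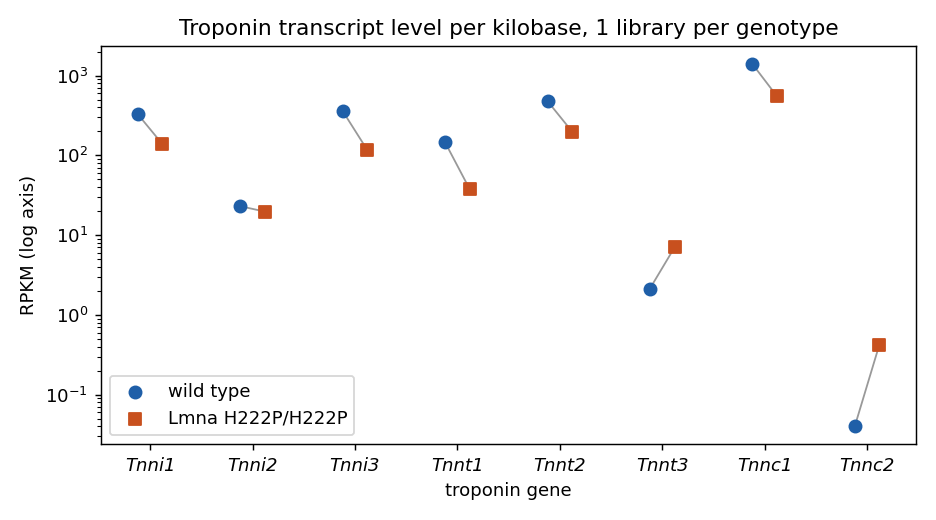
Level of each troponin gene in RPKM (log axis) in the wild-type library (circles) and the Lmna H222P/H222P library (squares), 1 library each, with a line joining both values of a gene. Tnnc1 is highest at 1394 and 550 RPKM, the cardiac and slow genes lie lower in the H222P library, and Tnnt3 and Tnnc2 lie higher at low levels.

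Troponin I, the inhibitory subunit, was made up mainly of Tnni1 and Tnni3. Tnni1, the fetal form, had 36546 wild-type and 13195 H222P reads, which is 328 and 138 RPKM. It was 2.37-fold lower (2.32 to 2.42). Tnni3, the cardiac form, had 22967 and 6389 reads, which is 359 and 117 RPKM. It was 3.07-fold lower (2.99 to 3.16), a larger difference than that of Tnni1. The fast form Tnni2 had 1069 and 782 reads, which is 23.0 and 19.7 RPKM, and was 1.17-fold lower (1.06 to 1.28).

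The ratio of Tnni3 to Tnni1 reads, which needs neither scaling nor transcript length, was 0.628 for wild type and 0.484 for H222P. The change in this ratio was 0.770-fold (0.744 to 0.797). Tnni3 made up 37.9% of wild-type troponin I reads (exact Clopper-Pearson interval 37.5 to 38.3) and 31.4% of those of H222P (30.7 to 32.0). Per kilobase of exon its share was 50.6% and 42.5%, and per kilobase of the longest transcript 58.1% and 50.01%. Whether Tnni3 or Tnni1 was the more abundant thus depended on the measure of length in the H222P library, while the lower Tnni3 share in that library appeared with each measure. Tnni2 made up 1.76% (1.66 to 1.87) and 3.84% (3.58 to 4.11) of troponin I reads.

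Troponin T, the tropomyosin-binding subunit, was mostly Tnnt2. Tnnt2 had 114726 wild-type and 40728 H222P reads, the most of the 8 genes, which is 478 and 198 RPKM. It was 2.41-fold lower (2.38 to 2.44), close to Tnni1. The ratio of Tnnt2 to Tnni1 reads was 3.14 and 3.09, and the interval of its change, 0.961-fold to 1.01-fold, includes 1. Tnnt1, the slow form, had 9920 and 2201 reads, which is 145 and 37.7 RPKM. It was 3.85-fold lower (3.68 to 4.04), the largest difference among the 5 cardiac and slow genes. The ratio of Tnnt1 to Tnnt2 reads was 0.0865 and 0.0540, a change of 0.625-fold (0.596 to 0.656).

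Tnnt2 therefore made up a slightly larger share of troponin T reads in the H222P library, 94.2% (94.0 to 94.4) against 92.0% (91.8 to 92.1). Per kilobase of exon these shares were 81.6% and 76.4%, with Tnnt1 at 15.5% and 23.2%. Tnnt3, the fast form, had 105 wild-type and 294 H222P reads, which is 2.14 and 7.01 RPKM. It was 3.27-fold higher (2.61 to 4.13), and its share of troponin T reads was 0.0842% (0.0688 to 0.102) and 0.680% (0.605 to 0.762).

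**Figure D2:**
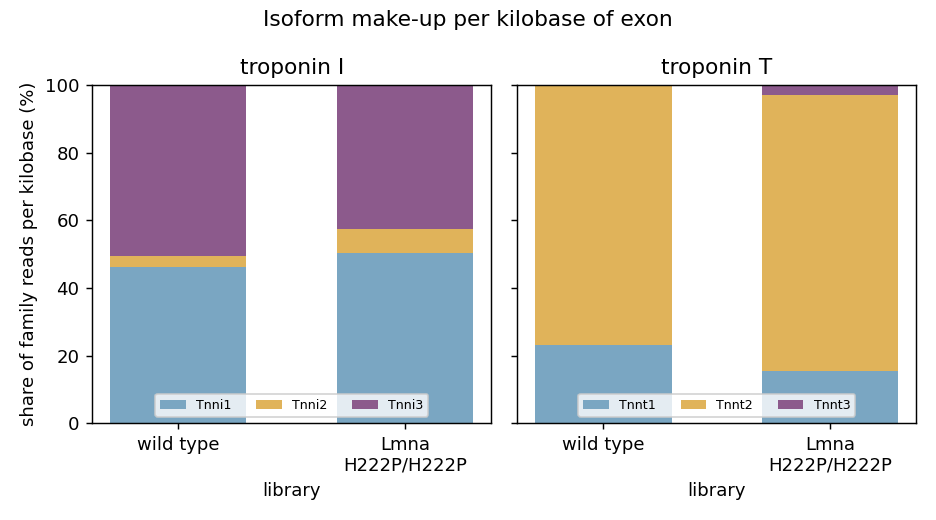
Share of each isoform in the reads per kilobase of exon of troponin I (left) and troponin T (right), in percent, for the wild-type and the Lmna H222P/H222P library. Tnni3 goes from 50.6% to 42.5% of troponin I, Tnnt1 from 23.2% to 15.5% of troponin T, and Tnnt3 from 0.342% to 2.88%.

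In order of RPKM, the wild-type library ran Tnnc1, Tnnt2, Tnni3, Tnni1, Tnnt1, Tnni2, Tnnt3, Tnnc2, from 1394 to 0.0403. In the H222P library Tnni1 (138) stood above Tnni3 (117), and the rest of the order did not differ. Per kilobase of the longest transcript, Tnni3 stood above Tnni1 in both libraries, at 813 and 548 (wild type) and 264 and 231 (H222P). There is no spread over samples against which to judge neighbours in this order. The 3 subunits join in equal number in the protein complex, and their summed levels per kilobase of exon were in similar proportion in both libraries. Summed troponin I over summed troponin T was 1.14 and 1.13, and troponin C over troponin T was 2.23 and 2.27. With the longest transcript as the length, these ratios were 0.987 and 0.961 for I over T and 1.42 and 1.44 for C over T, so their size depends on the length used. All 8 genes together held 0.705% of wild-type reads on genes (0.702 to 0.708) and 0.314% of H222P reads (0.311 to 0.316).

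Of the 7 troponin genes that averaged at least 1 CPM, 5 were at least 1.5-fold lower, 1 (Tnnt3) was higher by as much and 1 (Tnni2) lay between these bounds. Of all 14716 genes at that level, 11.4% were lower by this measure and 10.9% higher. All 5 lower genes were also past 2-fold, a size that 4.35% of all genes reached downward, and Tnnt3 was past it upward with 5.95% of all genes. The median log2 ratio of the 7 genes was −1.27, against −0.01 over all genes. The 5 lower genes all had a mean above 100 CPM, and among 2102 genes at that level 12.3% were at least 1.5-fold lower, with a median of −0.08. Both wild-type and H222P values are single measurements, so no statement on their repeatability can be made.

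**Figure D3:**
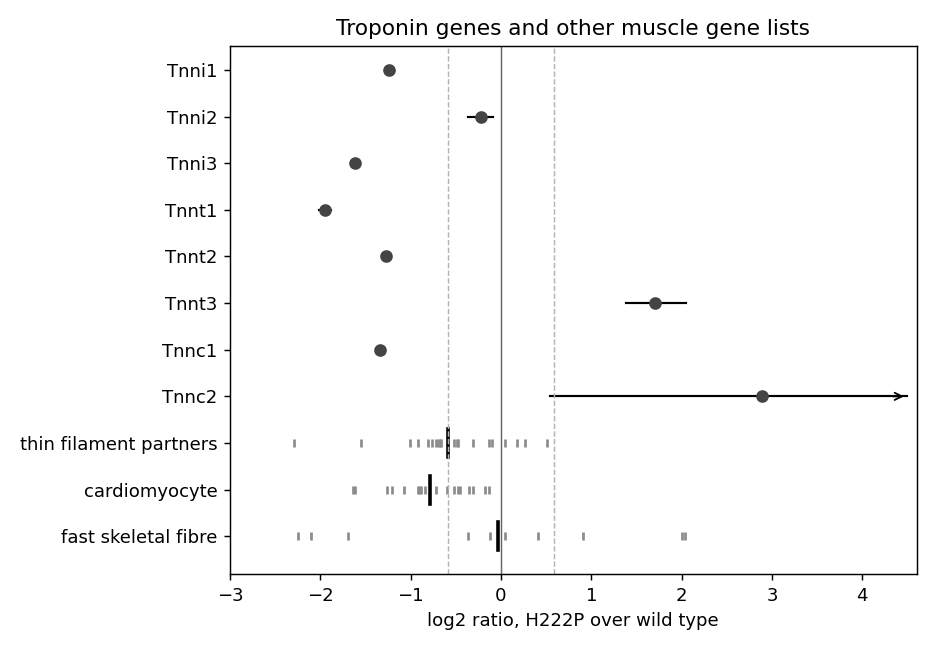
Log2 ratio of each troponin gene, Lmna H222P/H222P over wild type, with its 95% counting interval (black lines, hidden by the point where narrow, arrow where it runs past the axis), above the ratios of 3 other muscle gene lists (grey ticks, median as a black bar). Dashed lines mark 1.5-fold; 5 troponin genes lie at −1.24 or lower, and the list medians are −0.59, −0.78 and −0.04.

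By the median of their list, the partners of troponin on the thin filament were lower by less. That list also holds forms best known from other tissues, and its members Nrap and Lmod3 had log2 ratios of −2.29 and −1.55. Of 20 partner genes measured, 10 were lower by at least 1.5-fold and none was higher by as much, with a median log2 ratio of −0.59. Across all 14716 genes the lower and higher shares were 11.4% and 10.9%. Among the tropomyosins, the proteins that troponin T binds, Tpm1 was 1.75-fold lower (1.73 to 1.78) and Tpm2 1.39-fold lower (1.29 to 1.49). Tpm4 was 1.10-fold lower and Tpm3 was 1.21-fold higher (1.16 to 1.26). Actc1, the cardiac actin and the most abundant partner by CPM, was 1.59-fold lower (1.58 to 1.60), while the skeletal actin Acta1 had a log2 ratio of 0.05 (−0.01 to 0.10). Nrap, a protein of forming myofibrils, was the lowest at 4.88-fold (4.51 to 5.29), and Tmod2, a capping protein best known from neurons, the highest at 1.42-fold (1.18 to 1.71).

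Of 18 cardiomyocyte markers, 11 were lower by at least 1.5-fold and none was higher by as much, with a median of −0.78. Here too the shares across all 14716 genes were 11.4% lower and 10.9% higher. These markers and the partners together make 38 genes, and only 5 of them had a log2 ratio below that of Tnni1. For Tnnt2 and Tnnc1 the number was 4, for Tnni3 it was 2 and for Tnnt1 it was 1. The 4 genes below Tnnc1 were Nrap, Pln, Myl2 and Lmod3. In a scaling added after the data were seen, which sets the median of the cardiomyocyte markers to 0, the log2 ratios were −0.46 for Tnni1, −0.49 for Tnnt2, −0.56 for Tnnc1, −0.84 for Tnni3 and −1.17 for Tnnt1. On that scale only Tnni3 and Tnnt1 were at least 1.5-fold lower, so the count of lower troponin genes was 2 in place of 5, and Tnni2 had a ratio of 0.56.

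Among 37 listed genes that averaged 100 CPM or more, the 3 log2 ratios nearest to those of Tnni1, Tnni3, Tnnt2 and Tnnc1 were taken. The 37 genes came from the partner and cardiomyocyte lists, and from the fast fibre genes and isoform pairs described below, which include broad forms. The likeness rests on 2 libraries and is no more than a similar ratio. Nearest to Tnni3 (−1.62) were Myl2, the ventricular regulatory light chain, at −1.62, and phospholamban (Pln), which restrains the calcium pump, at −1.63, with Myl3 next at −1.26. Nearest to Tnnt2 (−1.27) and to Tnni1 (−1.24) was Myl3, the ventricular essential light chain, at −1.26, followed by the atrial natriuretic peptide gene Nppa at −1.21 and the lactate dehydrogenase gene Ldhb at −1.09. The same 3 genes were nearest to Tnnc1 (−1.34).

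The change from Tnni1 to Tnni3 is one of several isoform changes of the maturing heart, and the ratio of the later or muscle form to the earlier or broad form was taken for 8 more pairs. The ratio was lower in the H222P library for 7 of these pairs and higher for 1. A ratio of a muscle form to a broad form also depends on the share of muscle RNA in a library. That part was not tested. Among the lower ones, the ratio of Cox7a1 to Cox7a2 changed 0.775-fold (0.662 to 0.905), about as much as Tnni3 to Tnni1, and that of Ckm to Ckb, the muscle and brain creatine kinases, changed 0.109-fold (0.0983 to 0.121). The exception was Myh6 to Myh7, the myosin heavy chains, whose ratio was 1.87-fold higher (1.85 to 1.89).

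Transcript length went with the ratio to a small extent. Among protein-coding genes that averaged 100 CPM or more, the median log2 ratio was −0.24 for 96 genes whose longest transcript is at most 1000 bases, −0.13 for 429 genes up to 2500 bases and −0.05 for 958 genes over 4000 bases. Tnnc1 (721 bases), Tnni3 (912 bases) and Tnnt1 (1059 bases) are short, while Tnni1 (2153 bases) and Tnnt2 (3330 bases) are longer in their longest annotated form. The fast genes Tnni2 (895 bases) and Tnnt3 (1079 bases) are as short, with log2 ratios of −0.22 and 1.71. The part of length in these values was not tested.

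**Figure D4:**
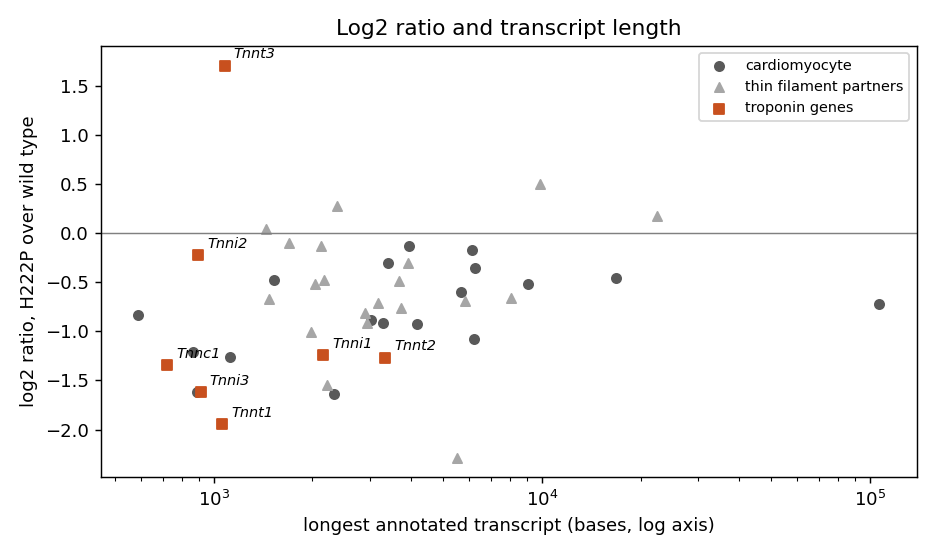
Log2 ratio, Lmna H222P/H222P over wild type, against the longest annotated transcript in bases (log axis) for 7 troponin genes (squares, named), cardiomyocyte markers (circles) and thin filament partners (triangles). Tnnt1 lies at −1.95 and Tnni3 at −1.62 among the shortest transcripts, where Tnni2 lies at −0.22 and Tnnt3 at 1.71.

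Of 15 other protein-coding genes that overlap a troponin gene or lie nearest to it on either side, 12 averaged at least 1 CPM. Their log2 ratios ran from −0.58 to 0.11, and 0 of the 12 were past 1.5-fold in either direction. Of all genes at that level, 11.4% were lower and 10.9% higher by as much. The count for neighbours was taken under the main scaling only. Lad1, between Tnni1 and Tnnt2, had 133 wild-type and 91 H222P reads, a log2 ratio of −0.32 (−0.72 to 0.07). Ppp1r12c, a myosin phosphatase subunit 2889 bases from Tnnt1, had 1322 and 1216 reads, a ratio of 0.11 (−0.01 to 0.22). Lsp1, between Tnni2 and Tnnt3, had 2377 and 1607 reads, a ratio of −0.34 (−0.43 to −0.25), whose interval overlaps that of Tnni2 (−0.36 to −0.09), while Tnnt3 was higher. The lowest of the 12 were Stab1 (−0.58) and Sema3g (−0.57), on either side of Tnnc1, and Phlda3 (−0.53), before Tnni1. Stab1 and Sema3g were just short of 1.5-fold. The 3 neighbours under 1 CPM were Syt8, 1411 bases from Tnni2, with 7 and 0 reads, Dnaaf3, which overlaps Tnni3, with 30 and 20 reads, and Pkp1, after Tnnt2, with 6 and 3 reads. Nisch, which overlaps Tnnc1 on the opposite strand, had 16243 and 14028 reads, a ratio of 0.01. Among the troponin genes themselves, Tnni1 and Tnnt2 had nearly the same ratio (−1.24 and −1.27). Tnni3 and Tnnt1, the closest pair, had the lowest ratios of the 8 genes, and still differed from each other, with a change in the Tnnt1 to Tnni3 read ratio of 0.798-fold (0.755 to 0.842). Tnni2 and Tnnt3 differed most within a pair, with a change of 3.82-fold (2.99 to 4.92) in the Tnnt3 to Tnni2 ratio.

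The fast troponin genes were set beside markers of skeletal muscle. In the list of fast fibre genes, 10 of 15 had a mean of at least 1 CPM, of which 3 were higher by at least 1.5-fold, 3 lower and 4 neither, with a median of −0.04. The shares over all genes at that level were 10.9% higher and 11.4% lower. Ryr1, the calcium release channel of skeletal muscle, had 21 and 75 reads (log2 ratio 2.04, interval 1.35 to 2.84), and Atp2a1, the fast calcium pump, 28 and 97 reads (2.00, interval 1.40 to 2.68). Myh3, the embryonic skeletal myosin, had 76 and 122 reads (0.91, interval 0.48 to 1.34). These 3 lay on the side of Tnnt3. Myl1, a light chain of fast muscle, was lower with 3207 and 576 reads (−2.25), as were the perinatal myosin Myh8 with 128 and 25 reads (−2.11) and the fast myosin-binding protein gene Mybpc2 with 141 and 37 (−1.69).

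Markers of myoblasts and of the endplate were near the limit of detection, with 2 of 12 at a mean of at least 1 CPM. Myog, a regulator of myoblast differentiation, had 36 wild-type and 72 H222P reads, and Myod1, which fixes the muscle lineage, had 6 and 24. Myf5, Myf6 and Pax7 had 0 wild-type reads and 8, 4 and 8 H222P reads. Pax3 had 2 and 5 reads and Mymk had 1 and 8. Of the endplate genes, Chrna1 had 2 and 1 reads, Chrnd 1 and 0, Musk 2 and 2 and Chrng 15 and 22. Mybpc1, the slow myosin-binding protein gene, had 199 and 81 reads. The summed level was 8.52 and 8.87 CPM for this list, and 288 and 195 CPM for the fast fibre list, and few genes carried much of each. Without Mybpc1 (6.42 and 3.06 CPM) the myoblast and endplate list summed to 2.10 and 5.81 CPM. Without Myl1 (103.5 and 21.7 CPM) the fast fibre list summed to 184 and 173 CPM. Most of what remained was Casq1, the most abundant gene of that list, at 151.7 and 139.7 CPM (log2 ratio −0.12). The part of skeletal muscle in the values of Tnnt3 and Tnni2 was not tested.

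**Figure D5:**
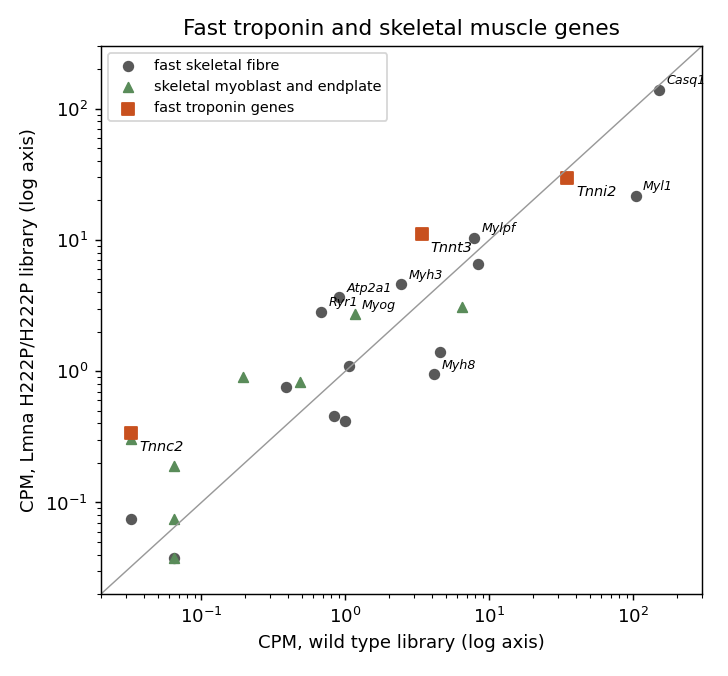
CPM in the Lmna H222P/H222P library against CPM in the wild-type library (both log axes) for the fast troponin genes (squares), fast fibre genes (circles) and myoblast and endplate genes (triangles), with the line of equal values. Genes with 0 reads in a library are not drawn. Tnnt3 (3.39 and 11.1 CPM) lies above the line, as do Atp2a1, Ryr1 and Myog at lower CPM. Tnni2 (34.5 and 29.5 CPM) lies close to the line, and Myl1 and Myh8 lie below it.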

How the data were processed

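RNA-seq was analysed in 2 libraries grouped by the genotype label, 1 wild type and 1 Lmna H222P/H222P. The authors deposited whole-number read counts for each gene, without normalization, laid out as STAR writes them. STAR, HTSeq, DESeq and build mm10 appear in the submitters' processing notes. Tool versions and the annotation release are not given in the sources used here. The reverse-strand column, which held 19.3 and 20.5 times the reads of the other strand, was used. Summary entries (17.2% and 18.0% of all reads) stayed out of library sizes. Multiply mapped reads do not enter the counts.

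Libraries were scaled by TMM factors (edgeR 4.0.16, R 4.3.3; 0.948 and 1.05), computed on the whole table. Log2 ratios used a prior count of 0.5. Their intervals are exact Clopper-Pearson 95% intervals of the share of reads (scipy 1.17.1), and those of read ratios are the exact conditional intervals of R. They cover counting error only, and PCR copies cannot be told from separate molecules. Lengths came from GENCODE M21, which matched 53351 of 55348 symbols. Genes were described by size (at least 1.5-fold, mean of at least 1 CPM). The ratio step was tested on simulated data.

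The members and lists were chosen with earlier results of these data known. The text names all 8 troponin genes, neighbours of them, the most abundant, highest and lowest members of the partner list, the tropomyosins, and the 3 genes nearest in ratio. The other genes of the partner and marker lists named were chosen after their values were seen. The alternatives tried were scaling by DESeq2 1.42.0 or by total counts, both strands, a prior count of 5, thinning, other gene sets and filters, a fold of 2, other lengths and means.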

Additional observations from a re-analysis of the deposited data

How the results depend on the processing

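The number of troponin genes at least 1.5-fold lower was 5 under 10 of 10 alternatives to the scaling, strand, filter, prior count, gene set, depth and fold, and the log2 ratios of the 7 genes other than Tnnc2 kept their sign in the 7 of them that bear on single genes. The ranges were −1.27 to −1.09 for Tnni1, −1.65 to −1.47 for Tnni3, −1.97 to −1.79 for Tnnt1, −1.30 to −1.12 for Tnnt2, −1.37 to −1.19 for Tnnc1, −0.26 to −0.07 for Tnni2 and 1.65 to 1.88 for Tnnt3. Total-count scaling, which moved the median of all genes to 0.15, gave the value nearest to 0 for each of the 6 lower genes. Tnnc2 ranged from 1.45 to 3.04 in 6 settings, had 0 reads in both libraries with both strands counted and so no measured ratio there, and without the filter on low counts it made the number of higher genes 2. With the median of the cardiomyocyte markers set to 0, a setting chosen after seeing the data, 2 genes were lower and the median of the thin filament partners was 0.19 in place of −0.59, a reversal that follows from the shift of 0.78 the setting adds. That median was −0.62 with DESeq2 size factors, −0.44 with total counts, −0.60 with thinning, −0.52 without a filter, −0.66 at 5 CPM and −0.55 as a mean.

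The Tnni3 share of troponin I moved from 37.9% and 31.4% of reads (wild type and H222P) to 50.6% and 42.5% per kilobase of exon and to 58.1% and 50.01% per kilobase of the longest transcript. The Tnnt2 share of troponin T moved from 92.0% and 94.2% to 76.4% and 81.6%, and to 78.4% and 83.9%. With both strands counted, Tnnc1 made up 100% of troponin C reads in both libraries. The log2 change in the Tnni3 to Tnni1 ratio was −0.38 for both strands and −0.39 after thinning, against −0.38. No paired analysis was possible because each genotype has 1 library. Variation between hearts is unknown, and at these depths a gene with 0 reads may have up to 0.0968 CPM (wild type) or 0.113 CPM (H222P), from 3 reads.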

Other observations

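Reads on the strand opposite to the troponin genes were counted apart and are not part of the values above. In the wild-type library they were 0.240% of the reads of Tnni1, 0.364% of Tnni3, 0.462% of Tnnt1, 0.559% of Tnnc1 and 1.59% of Tnnt2, against 4.94% over all genes. In the H222P library the same genes had 0.249%, 0.234%, 0.272%, 0.655% and 1.43%, against 4.65%. Tnnt2 had the most such reads of the 8 genes, 1854 and 590. The fast genes rest on few such reads. Tnni2 had 5 and 1 (0.466% and 0.128%) and Tnnt3 had 5 and 4 (4.55% and 1.34%). Tnnc2 had 4 and 2 (80.0% and 18.2%), above the share over all genes, at 5 and 11 reads on both strands.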
